A study of Homo sapiens with 2 samples.

Results

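The endoplasmic reticulum unfolded protein response genes described here are 34 genes chosen by name: the sensors of the endoplasmic reticulum membrane, the transcription factor XBP1, and the chaperones, disulfide enzymes, degradation factors, translocon subunit and phosphatase subunits that work beside them. Genes of the amino acid response were left out by the rule. All 34 were found among the 57894 genes with a deposited transcript, and together they hold 261 of the 197318 transcripts that matched the annotation. The study sequenced total RNA of HEK293 cells, an established line derived from human embryonic kidney, to measure expression and alternative splicing after loss of LARP7, a protein that binds and stabilises the small nuclear RNA 7SK. The groups were LARP7 knockout HEK293 cells (clone 1-11) and parental HEK293 cells, with 2 libraries each, both grown in the same medium with fetal bovine serum and with no stress treatment named in the labels. All knockout libraries came from 1 clone, so the knockout and any other property of that clone cannot be told apart. The labels do not say whether replicate libraries had their own cultures, and p-values therefore cover only the spread among these 4 libraries, which may be technical.

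Secreted and membrane proteins are folded in the endoplasmic reticulum. When unfolded proteins build up there, the sensors IRE1 (gene ERN1), PERK (gene EIF2AK3) and ATF6 are activated: IRE1 cuts an intron out of XBP1 mRNA so that it encodes an active transcription factor, PERK phosphorylates eIF2alpha and lowers translation, and ATF6 is cleaved in the Golgi to release a transcription factor. XBP1 and ATF6 then raise transcription of chaperones such as BiP (gene HSPA5), of oxidoreductases that form disulfide bonds, and of the machinery that sends misfolded proteins back to the cytosol for degradation. In unstressed cultured cells these genes are expressed at a basal level set in part by the load of proteins to fold.

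The knockout libraries held 16838501 and 16218587 estimated reads, and the parental libraries held 18483220 and 12851942. Gene LARP7 itself was at 36.1 and 31.9 CPM (reads scaled to a common library size with edgeR's TMM factors) in knockout libraries and at 59.8 and 46.5 CPM in parental libraries, with a log2 fold change of -0.65 (SE 0.16) and an adjusted p of 0.135 by edgeR's quasi-likelihood test with Benjamini-Hochberg adjustment. The groups did not overlap, but the difference did not pass the threshold of 0.05, and LARP7 mRNA was present in both libraries labelled knockout. All 9 HEK293 markers were detected at 1.14 CPM or more in all 4 libraries. Of these, the neurofilament gene NEFM fell to 7.76 and 8.58 CPM in knockout libraries, against 49.4 and 73.6 CPM in parental libraries (adjusted p = 0.00164 by edgeR). Of 15 markers of other cell types, 1 (COL1A1) passed the filter on low counts, 6 were at 0 in every library, and the 15 summed to 8.22 to 8.64 CPM in knockout libraries and 6.7 to 6.91 CPM in parental libraries. The parental libraries differed from each other more than the knockout libraries did: over 12409 genes with a log2 CPM above 2, the median absolute log2 difference within the pair was 0.13 for the knockout pair and 0.24 for the parental pair, and over the 34 genes it was 0.08 for the knockout pair and 0.22 for the parental pair.

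Several of the genes carry in their promoters the response elements through which ATF6 and XBP1 are known to act, and these sequences are shown to let them be compared. The genes were chosen by name as known genes of this response. Higher shares of these elements than among all genes were therefore likely beforehand, and the shares below are description only. RefSeq promoter windows (GRCh38.p14, 250 bases before to 50 bases after the start) were found for 31 of the 34 genes. PDIA3, DERL1 and DERL3 had no entry. The endoplasmic reticulum stress element (ERSE: CCAAT, 9 bases, then CCACG, either strand) was present in 8 of 31, or 25.8%, against 0.0916% of all 27305 genes with a window. One match is shown for each of these 8, with the element in capitals on the strand of the gene. In CALR, CRELD2 and ERO1B the element lies on the opposite strand and is read in reverse, and HSP90B1 holds another copy on the opposite strand.
HSPA5 promoter, chr9:125241391-125241409, minus strand: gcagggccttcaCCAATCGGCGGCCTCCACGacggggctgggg
HSP90B1 promoter, chr12:103930216-103930234, plus strand: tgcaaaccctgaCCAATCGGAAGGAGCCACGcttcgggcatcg
CALR promoter, chr19:12938384-12938402, plus strand: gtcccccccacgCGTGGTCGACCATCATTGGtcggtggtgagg
CANX promoter, chr5:179698778-179698796, plus strand: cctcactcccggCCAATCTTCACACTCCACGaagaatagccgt
PDIA6 promoter, chr2:10812853-10812871, minus strand: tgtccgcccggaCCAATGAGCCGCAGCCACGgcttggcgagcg
XBP1 promoter, chr22:28800603-28800621, minus strand: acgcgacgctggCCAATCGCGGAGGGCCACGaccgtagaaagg
CRELD2 promoter, chr22:49918554-49918572, plus strand: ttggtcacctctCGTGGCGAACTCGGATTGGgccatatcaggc
ERO1B promoter, chr1:236282183-236282201, minus strand: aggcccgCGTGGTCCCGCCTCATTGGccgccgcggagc

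The shorter element ERSE-II (ATTGG, 1 base, then CCACG, either strand) was present in HERPUD1, HYOU1 and SDF2L1, which is 9.68% of the genes with a window, against 0.0696% of all genes. HYOU1 holds it at 2 places, of which the one nearer the start is shown.
HERPUD1 promoter, chr16:56932025-56932035, plus strand: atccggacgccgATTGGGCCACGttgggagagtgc
HYOU1 promoter, chr11:119057274-119057284, minus strand: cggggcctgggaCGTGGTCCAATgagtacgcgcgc
SDF2L1 promoter, chr22:21642114-21642124, plus strand: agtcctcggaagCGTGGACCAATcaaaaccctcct
The unfolded protein response element (UPRE, TGACGTG, either strand) was present in 1 gene, HYOU1, against 2.4% of all genes, and there it overlaps the other ERSE-II match. A match describes these letters in this window and is not evidence of binding.

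The promoters of HSPA5, the gene of BiP, and of HERPUD1, a membrane protein that brings substrates to the degradation machinery, are printed over the 250 bases before their start sites, chr9:125241344-125241593 on the minus strand and chr16:56931892-56932141 on the plus strand, because both genes recur in the results. Capitals mark ERSE in HSPA5 and ERSE-II in HERPUD1.
HSPA5: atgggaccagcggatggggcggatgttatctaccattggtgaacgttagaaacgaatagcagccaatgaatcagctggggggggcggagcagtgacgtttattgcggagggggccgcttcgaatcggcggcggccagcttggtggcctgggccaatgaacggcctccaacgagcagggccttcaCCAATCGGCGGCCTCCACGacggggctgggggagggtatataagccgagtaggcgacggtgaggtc
HERPUD1: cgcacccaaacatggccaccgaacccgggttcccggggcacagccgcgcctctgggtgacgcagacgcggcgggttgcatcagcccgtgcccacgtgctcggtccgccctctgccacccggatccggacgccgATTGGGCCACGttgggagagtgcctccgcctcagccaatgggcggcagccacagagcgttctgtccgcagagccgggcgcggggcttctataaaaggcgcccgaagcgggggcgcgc

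None of the 34 genes passed the test, and with so few of all genes called, this does not set them apart. All 34 passed the filter on low counts. With an adjusted p under 0.05 over all 18484 genes tested (edgeR quasi-likelihood test), 0 of the 34 were higher and 0 were lower in knockout cells, beside 154 of all genes (0.833%), of which 61 were higher (0.33%) and 93 lower (0.503%). DESeq2 and limma voom also called 0 of the 34, beside 2.75% and 0.812% of the genes they tested. Leaving out a parental library leaves a lone sample in that group, which is then assumed to vary like the knockout pair. Those fits called many more genes: 3 of the 34 (8.82%) without parental replicate 1, beside 11.4% of all genes, and 3 of the 34 (8.82%) without parental replicate 2, beside 9.27% of all genes. Without knockout replicate 1 or 2, 0 of the 34 were called. At an unadjusted p under 0.05, 3 of the 34 genes passed (8.82%), beside 14.3% of all genes. The 3 were PDIA4, SEL1L and DERL3. Both knockout libraries lay above both parental libraries in 5 of the 34, beside 23.5% of all genes, and below both in 7, beside 22.7% of all genes. The log2 fold changes of the 34 were positive in 15 and negative in 19, with a median of -0.05, beside 0.0 for all genes tested.

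The intervals around these changes limit how large a change between these 4 libraries could have been missed. They cover only the spread among these libraries, and do not cover other clones. No share over all genes is given beside the counts of intervals below, so they do not set these genes apart. The 95% interval lay within 2-fold in either direction for 30 of the 34 genes and within 1.5-fold for 23, and it included no change for 31. The lowest bound was -1.63 on the log2 scale, for DERL3, and the highest was 1.1, for PPP1R15A. Both are among the least read genes of the set, where read counts across the set spanned 42 to 22982 per library. Summed over the 34 genes, the level was 4652 and 4692 CPM in knockout libraries and 4845 and 4482 CPM in parental libraries, so the knockout sums lay between those of the parental pair. A sum over cells cannot separate fewer cells with a transcript from less of it per cell.

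**Figure D1:**
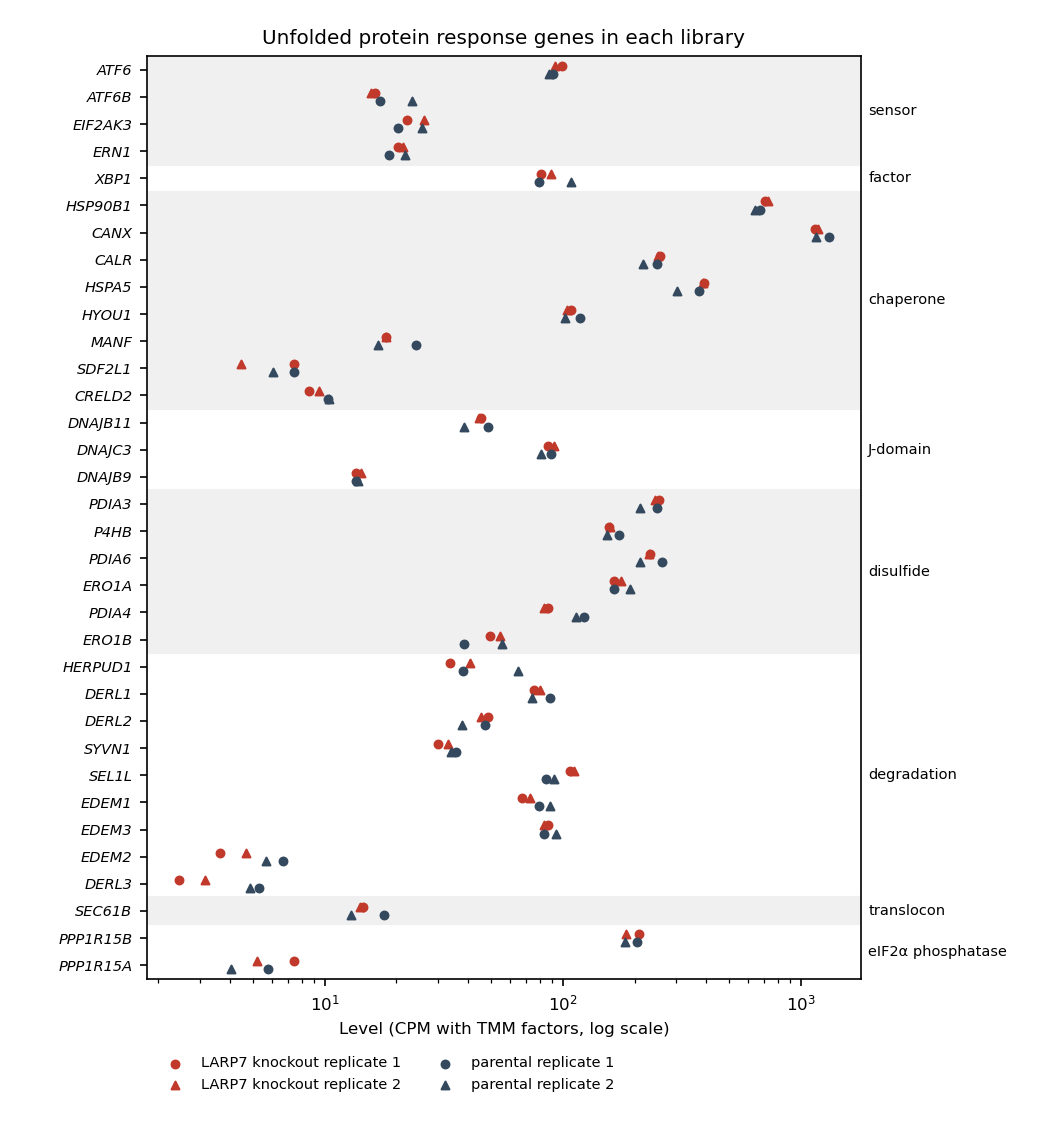
Level of each of the 34 genes in each library, in CPM with TMM factors on a log scale, grouped by role and ordered within a role by TPM; red symbols are LARP7 knockout libraries, grey symbols parental libraries, circles replicate 1 and triangles replicate 2. The 5 genes with both knockout libraries on the right are ATF6, HSPA5, HSP90B1, CALR and SEL1L.

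**Figure D2:**
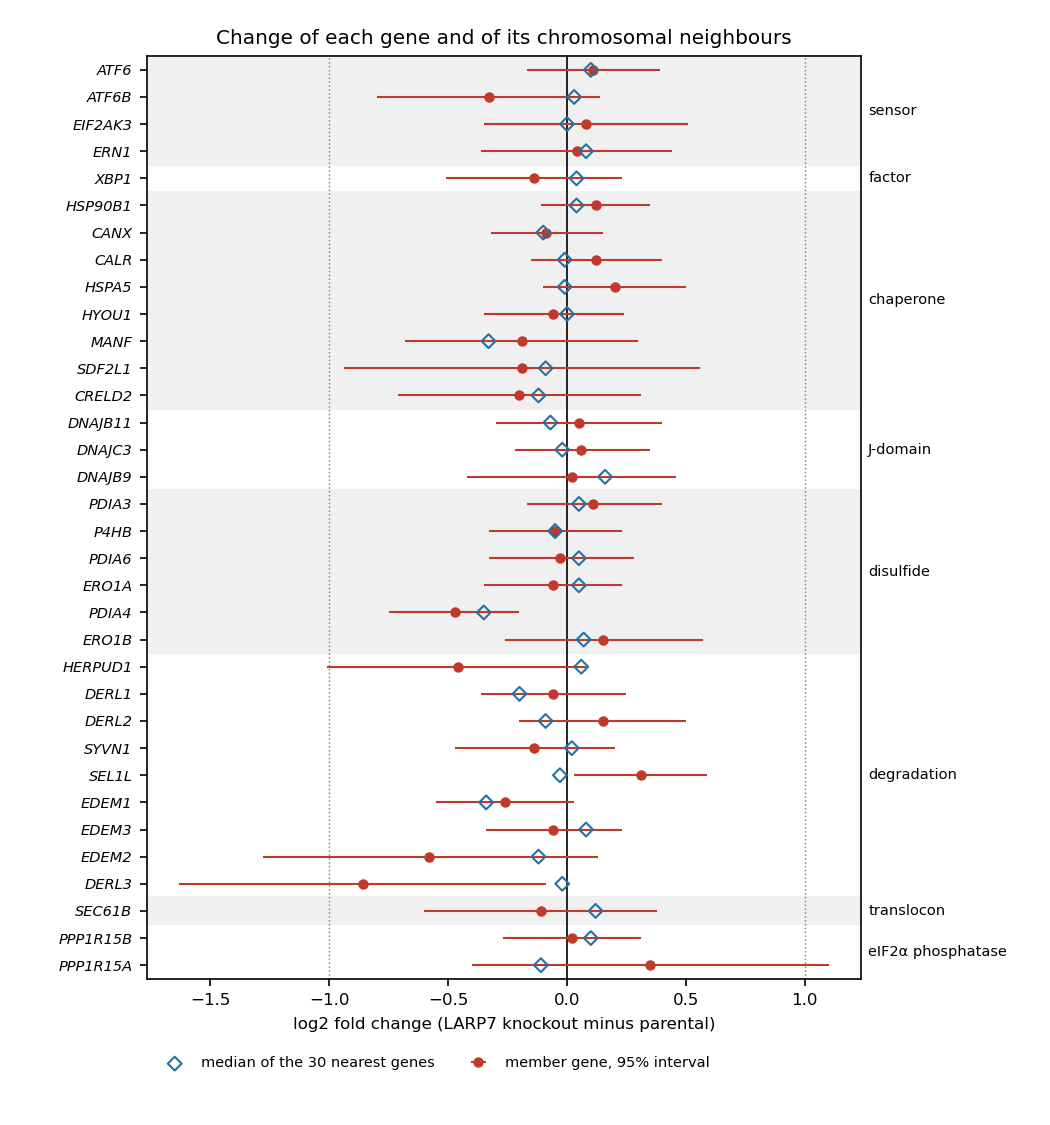
Log2 fold change of each gene, LARP7 knockout minus parental, with its 95% interval (red, edgeR, n = 2 libraries per group), and the median log2 fold change of the 30 nearest tested genes (open blue diamonds). Dotted lines mark 2-fold changes; 30 of the 34 intervals lie between them.

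In unstressed HEK293 cells the most abundant transcripts per length were those of the chaperones and the disulfide isomerases. HSP90B1, the HSP90 of the endoplasmic reticulum, was at 317 and 323 TPM (a level scaled for transcript length and library total) in knockout libraries and 257 and 196 TPM in parental libraries. CANX, the membrane lectin calnexin, followed with 278 and 264 TPM in knockout libraries and 254 and 182 TPM in parental libraries. Over all libraries, the TPM range of HSP90B1 overlaps that of CANX. Next came CALR, the soluble lectin calreticulin, with 160 and 140 TPM in knockout libraries and 122 and 80.7 TPM in parental libraries. At the low end lay DERL3, with 0.762 and 1.38 TPM in knockout libraries and 2.25 and 1.72 TPM in parental libraries, PPP1R15A and EDEM2. TPM served only for this order, because the median log2 TPM ratio of all genes between knockout and parental libraries was 0.4, and all comparisons between groups use counts.

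The sensors showed no change that passed the test. ATF6 was at 99.1 and 92.7 CPM in knockout libraries and 90.7 and 87.2 CPM in parental libraries, a log2 fold change of 0.11 (95% interval -0.17 to 0.39). ERN1, the gene of the kinase and ribonuclease IRE1, was at 20.4 and 21.2 CPM in knockout libraries and 18.7 and 21.8 CPM in parental libraries. EIF2AK3, the gene of the eIF2alpha kinase PERK, was at 22.2 and 26.1 CPM in knockout libraries and 20.3 and 25.6 CPM in parental libraries. For both kinases the groups overlapped, and the log2 fold changes were 0.04 and 0.08. The lowest value among sensors belonged to ATF6B, a paralog of ATF6, with 16.3 and 15.6 CPM in knockout libraries and 17.1 and 23.2 CPM in parental libraries (log2 fold change -0.33, SE 0.21). Its groups did not overlap, but the lower parental library was within 1 CPM of the higher knockout library.

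XBP1, the transcription factor activated by IRE1, was at 80.6 and 89.0 CPM in knockout libraries and 79.6 and 108 CPM in parental libraries, with overlapping groups and a log2 fold change of -0.14 (SE 0.16). Whether its mRNA is spliced by IRE1 reports on pathway activity more directly than its level. The intron that IRE1 removes has 26 bases, at chr22:28796122-28796147 on the minus strand of GRCh38, and is shown in capitals with 30 bases on each side. Because of repeated letters at its ends, 7 placements of the cut give the same spliced mRNA.
XBP1 exon 4, intron removed by IRE1: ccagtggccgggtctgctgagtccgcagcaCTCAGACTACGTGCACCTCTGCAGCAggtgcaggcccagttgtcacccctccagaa
XBP1-201 holds this intron, and XBP1-202 is an annotated transcript without it. The other XBP1 transcripts were not checked for it. XBP1-202 made up 10.7 and 14.3% of XBP1 TPM in knockout libraries and 6.3 and 14.3% in parental libraries. The knockout shares of XBP1-202 thus lay within or at the edge of the parental range. The test of transcript usage (diffSpliceDGE, described below for HERPUD1) gave XBP1 an adjusted p of 1.0. XBP1-202 is annotated without untranslated regions, and reads from those parts were assigned to other transcripts. The split among those others was unstable. XBP1-204 held 0.0 and 24.5% of XBP1 TPM in knockout libraries and 21.99 and 0.97% in parental libraries. XBP1-203 was assigned 26.5 and 38.6 reads in knockout libraries and 0 and 0 reads in parental libraries. That was 1.91 and 2.47% of XBP1 TPM in knockout libraries, and the usage test did not include XBP1-203. Its annotated length is 1824 bases, against 1850 for XBP1-201, which differ by the length of this intron. Whether XBP1-203 lacks the intron was not checked. The XBP1-202 share may therefore leave out part of the spliced form, and the shares given cover XBP1-202 alone.

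Among the 8 chaperones, 3 had a positive and 5 a negative log2 fold change, between -0.20 and 0.20. HSPA5, the HSP70 of the endoplasmic reticulum and the usual marker of the response, was at 391.9 and 386 CPM in knockout libraries and 375 and 301 CPM in parental libraries. Both knockout libraries were above both parental ones, and the log2 fold change was 0.20 (SE 0.13, 95% interval -0.10 to 0.50, adjusted p = 0.541 by edgeR). Without parental replicate 1 it was 0.36 with an adjusted p of 0.0446. In the other leave-one-out fits it was 0.05 to 0.22 with adjusted p-values of 0.847 to 1.0, so this value rests on which parental library is used. HSP90B1 was at 709 and 724 CPM in knockout libraries and 675 and 643 CPM in parental libraries (log2 fold change 0.12, SE 0.10). CALR had 255 and 252 CPM in knockout libraries and 249 and 217 CPM in parental libraries, with a log2 fold change of 0.12. The intervals of HSP90B1 and CALR end at 0.35 and 0.40, which is a 1.28-fold and a 1.32-fold rise.

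CANX, the most read gene of the set, was at 1143 and 1175 CPM in knockout libraries and 1306 and 1160 CPM in parental libraries, with overlapping groups. HYOU1, a large HSP70-like exchange factor for BiP, was at 108 and 104 CPM in knockout libraries and 119 and 102 CPM in parental libraries. The secreted or soluble factors were read less. MANF, a small secreted protein that binds BiP, was at 18.0 and 18.0 CPM in knockout libraries and 24.3 and 16.7 CPM in parental libraries. CRELD2, a secreted stress-induced disulfide isomerase-like protein, was at 8.58 and 9.47 CPM in knockout libraries and 10.3 and 10.4 CPM in parental libraries, and its groups did not overlap. SDF2L1, a partner of J-domain proteins, was at 7.41 and 4.44 CPM in knockout libraries and 7.44 and 6.03 CPM in parental libraries. The 3 had log2 fold changes of -0.19, -0.20 and -0.19, each with an SE of 0.21 or more.

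The J-domain co-chaperones, which bring substrates to BiP and start its ATPase cycle, had log2 fold changes near 0. DNAJB9, which also holds IRE1 inactive, was at 13.5 and 14.1 CPM in knockout libraries and 13.5 and 13.8 CPM in parental libraries. DNAJB11 was at 45.3 and 44.6 CPM in knockout libraries and 48.5 and 38.3 CPM in parental libraries. DNAJC3, also known as an inhibitor of PERK, was at 86.4 and 91.6 CPM in knockout libraries and 89.0 and 81.3 CPM in parental libraries. Log2 fold changes were 0.02, 0.05 and 0.06, and in each case the groups overlapped.

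Of the 6 disulfide genes, PDIA4 stood lowest. PDIA4, a protein disulfide isomerase with an additional catalytic domain, was at 86.2 and 83.4 CPM in knockout libraries and 122 and 113 CPM in parental libraries. Both knockout libraries lay well below both parental libraries, and the log2 fold change was -0.47 (SE 0.12, 95% interval -0.75 to -0.20), with the smallest unadjusted p of the set, 0.00404, and an adjusted p of 0.139 by edgeR. Of the leave-one-out fits, those without parental replicate 1 or 2 passed (adjusted p = 0.0238 and 0.000889) and those without knockout replicate 1 or 2 did not (0.804 and 0.827). The sign was negative in all 14 alternative settings, with values of -0.53 to -0.38. The genes around PDIA4 on chromosome 7 were lower as well: the median log2 fold change of its 30 nearest tested protein-coding genes was -0.35, and that of the 60 nearest was -0.41. Their part in the PDIA4 value was not tested, and PDIA4 lay 0.12 below the median of these neighbours.

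The other disulfide genes had smaller differences. PDIA3, the partner of calnexin and calreticulin, was at 253 and 245 CPM in knockout libraries and 249 and 211 CPM in parental libraries. PDIA6 was at 232 and 229 CPM in knockout libraries and 260 and 210 CPM in parental libraries. P4HB, the classical disulfide isomerase, was at 157 and 158 CPM in knockout libraries and 173 and 153 CPM in parental libraries. These 3 isomerases overlapped between groups, with log2 fold changes of 0.11, -0.03 and -0.05. The oxidases that recharge them overlapped between groups too. ERO1A was at 165 and 175 CPM in knockout libraries and 164 and 191 CPM in parental libraries. ERO1B, its paralog, was at 49.2 and 54.7 CPM in knockout libraries and 38.4 and 55.3 CPM in parental libraries, with a log2 fold change of 0.15 (SE 0.18). Without parental replicate 2 the ERO1B value was 0.43 with an adjusted p of 0.0281, and without parental replicate 1 it was -0.09. Adjusted p-values in the other 3 leave-one-out fits were 0.672 to 1.0.

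The degradation genes spread most, with log2 fold changes between -0.86 and 0.31, 2 positive and 7 negative. SEL1L, the adaptor of the HRD1 ubiquitin ligase, was at 107 and 111 CPM in knockout libraries and 84.5 and 91.6 CPM in parental libraries. Both knockout libraries were higher, the log2 fold change was 0.31 (SE 0.12, 95% interval 0.03 to 0.59), and the adjusted p was 0.303 by edgeR. Without parental replicate 2 it was 0.36 with an adjusted p of 0.0405, against 0.189 to 1.0 in the other 3 leave-one-out fits, while across the alternatives it stayed positive at 0.19 to 0.40. The 30 nearest genes had a median of -0.03 and the 10 nearest a median of 0.26. SYVN1, which encodes HRD1 itself, averaged 31.5 ± 2.17 CPM in knockout libraries and 34.7 ± 1.29 CPM in parental libraries (SD, n = 2 each), and its log2 fold change was -0.14 (SE 0.15).

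DERL3, a member of the derlin family which takes part in retrotranslocation to the cytosol, was the lowest of the set. It had 42 and 53 reads in knockout libraries and 93 and 61 reads in parental libraries, which is 2.45 and 3.14 CPM in knockout libraries and 5.28 and 4.84 CPM in parental libraries, and the groups did not overlap. The log2 fold change was -0.86 (SE 0.34) with an adjusted p of 0.303 by edgeR, and its sign held in all 14 alternatives. Its paralogs overlapped between groups. DERL1 was at 75.8 and 80.5 CPM in knockout libraries and 88.4 and 74.2 CPM in parental libraries, and DERL2 was at 48.6 and 45.5 CPM in knockout libraries and 46.9 and 37.6 CPM in parental libraries.

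The EDEM genes encode lectins and mannosidases that mark misfolded glycoproteins for removal. EDEM1 was at 67.2 and 73.1 CPM in knockout libraries and 79.3 and 88.3 CPM in parental libraries, a log2 fold change of -0.26 (SE 0.13). Its 30 nearest genes on chromosome 3 had a median of -0.34 and its 10 nearest a median of -0.15, and the 30 nearest genes of MANF on the same chromosome had a median of -0.33; the part of these neighbours was not tested. EDEM2 was at 3.62 and 4.67 CPM in knockout libraries and 6.71 and 5.64 CPM in parental libraries, with a log2 fold change of -0.58 (SE 0.31). In EDEM3 the groups overlapped, with 86.6 and 83.7 CPM in knockout libraries and 83.4 and 93.7 CPM in parental libraries.

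HERPUD1 showed the widest spread within a group. It was at 33.6 and 40.8 CPM in knockout libraries and 38.1 and 64.8 CPM in parental libraries, so parental replicate 1 lay among the knockout libraries and parental replicate 2 far above them. The log2 fold change was -0.46 (SE 0.24, 95% interval -1.01 to 0.08) with an adjusted p of 0.425 by edgeR. Without parental replicate 1 it was -0.81 with an adjusted p of 0.00115. In the other 3 leave-one-out fits it was -0.61 to -0.04, with adjusted p-values of 0.608 to 1.0. Its 30 nearest genes on chromosome 16 had a median of 0.06.

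The last members act outside folding and degradation. SEC61B, a subunit of the channel through which new proteins enter the endoplasmic reticulum, was at 14.4 and 14.1 CPM in knockout libraries and 17.7 and 12.94 CPM in parental libraries. PPP1R15A and PPP1R15B direct a phosphatase to eIF2alpha and so reverse the action of PERK. PPP1R15A, the stress-induced one, was at 7.41 and 5.21 CPM in knockout libraries and 5.80 and 4.05 CPM in parental libraries, the highest log2 fold change of the set at 0.35 (SE 0.33), with overlapping groups. PPP1R15B, the constitutive one, was at 208 and 185 CPM in knockout libraries and 205 and 182 CPM in parental libraries, a log2 fold change of 0.02.

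Transcript forms within a gene were tested with diffSpliceDGE on transcripts that reached 10 reads and 5% of their gene's reads in 2 or more libraries, and 19 of the 34 genes could be tested. HERPUD1 was the only one with an adjusted p under 0.05 (0.021, 5 transcripts), beside 65 of 9517 genes (0.683%). HYOU1 was next with an adjusted p of 0.0541, and the other 17 were at 1.0. The HERPUD1 call rests on a transcript, HERPUD1-203, to which 155 and 149 reads were assigned in knockout libraries and 0 and 0 in parental libraries. It lacks exon 3, which has 72 bases, a multiple of the codon length, at chr16:56935404-56935475 on the plus strand. The exon is in capitals with 20 bases of its neighbouring exons on each side.
HERPUD1 exon 3: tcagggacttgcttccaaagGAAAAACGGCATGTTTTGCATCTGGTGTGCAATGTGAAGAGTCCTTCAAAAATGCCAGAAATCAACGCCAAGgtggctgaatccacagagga
Of the reads assigned to transcripts that cover both neighbouring exons, those without exon 3 made up 40.3 and 41.1% in knockout libraries and 0 and 0% in parental libraries, where a count of 0 allows up to 0.792 and 0.623%. This limit covers counting error only and not Salmon's assignment of reads among transcripts. It counts all reads assigned to these transcripts. Only part of those reads can tell the forms apart, so the true limit is wider. HERPUD1-203 and HERPUD1-201 are annotated at 1782 and 1862 bases, which differ by more than exon 3. The 2 transcripts therefore also differ outside this exon, and the part of that in the assignment was not tested. HERPUD1-201 went the other way, with 21.4 and 79.1 reads in knockout libraries and 170.5 and 241.3 in parental libraries. The split was unstable within the knockout pair, where HERPUD1-204 was assigned 181.3 and 77.2 reads and HERPUD1-209 125.3 and 223.0. HERPUD1-203 held 27.0 and 21.7% of all HERPUD1 reads in knockout libraries. The HERPUD1 call was lost in each leave-one-out fit, with adjusted p-values of 0.156 to 1.0, and with the replicate number as a block (adjusted p = 0.255, where 0 genes were called). The number of genes called then was 0 without either knockout library, 2 without parental replicate 2 and 88 without parental replicate 1.

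For HYOU1, which missed the threshold, the form without an exon was the one assigned to parental libraries. HYOU1-217, which lacks the 186-base exon 17 at chr11:119049018-119049203 on the minus strand, was assigned 7.1 and 0 reads in knockout libraries and 291 and 337 reads in parental libraries. The exon is shown in capitals with 20 bases on each side.
HYOU1 exon 17: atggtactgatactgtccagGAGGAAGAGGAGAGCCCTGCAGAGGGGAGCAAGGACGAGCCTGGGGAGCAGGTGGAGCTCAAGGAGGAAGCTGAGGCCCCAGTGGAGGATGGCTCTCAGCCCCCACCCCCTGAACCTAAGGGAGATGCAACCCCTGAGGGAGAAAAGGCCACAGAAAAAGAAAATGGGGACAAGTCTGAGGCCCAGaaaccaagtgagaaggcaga
Among reads assigned to forms with or without it, those without made up 0.50 and 0% in knockout libraries and 18.9 and 33.4% in parental libraries. In knockout replicate 2 the count of 0 allows up to 0.229%, for counting error only, while knockout replicate 1 was at 0.50%. That limit also counts all reads assigned to these transcripts, so the true limit is wider. HYOU1-217 and HYOU1-220, the main form with exon 17, are annotated at 4360 and 4529 bases, which differ by less than this exon. They therefore also differ outside it, and the part of that in the assignment was not tested. The adjusted p passed with a gene-level F test (0.0405), no minimum share (0.0373) and a minimum of 30 reads (0.0454). It did not pass with a minimum share of 10% (0.0808), with the replicate number as a block (0.668) or in the leave-one-out fits (0.236 to 1.0). The difference in the total level of HYOU1 did not pass the test (log2 fold change -0.06, 95% interval -0.35 to 0.24).

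**Figure D3:**
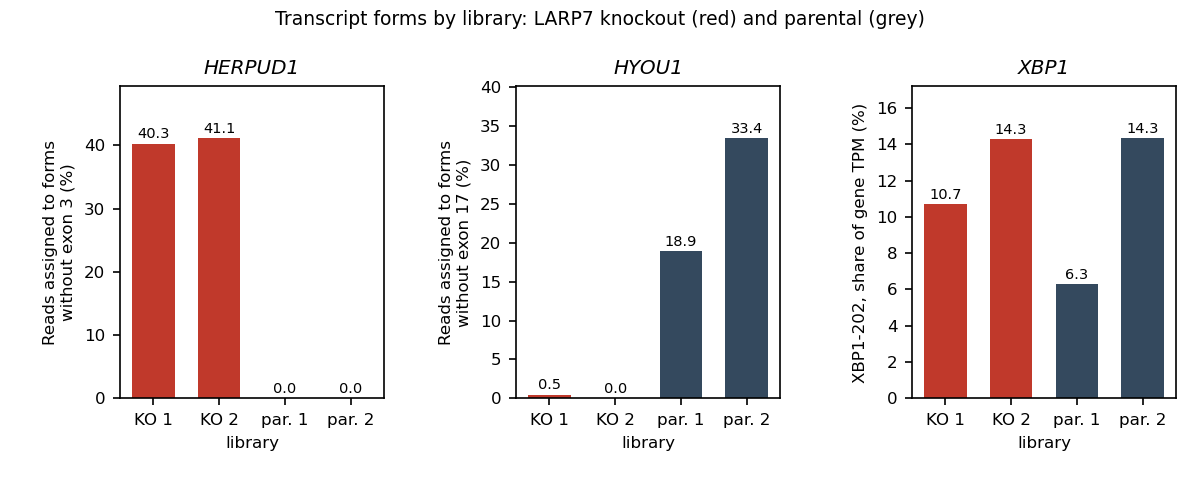
Percent of reads assigned to HERPUD1 forms without exon 3 and to HYOU1 forms without exon 17, in each library. Beside them is the percent of XBP1 TPM held by XBP1-202, a form without the intron removed by IRE1. Red bars are LARP7 knockout libraries (KO), grey bars parental libraries (par.). HERPUD1 forms without exon 3 stand at 40.3 and 41.1% in knockout libraries and 0 and 0% in parental libraries. The XBP1-202 shares overlap.

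Other genes of the pathway were described through 6 lists with 121 genes, of which 118 were tested. Of these, 1 passed (0.847%), close to the 0.833% of all genes. It was ASNS, asparagine synthetase, a target of ATF4 in the integrated stress response, the branch that PERK shares with other eIF2alpha kinases. It fell to 81.8 and 76.7 CPM in knockout libraries, against 163 and 294 CPM in parental libraries (log2 fold change -1.52, SE 0.24, adjusted p = 0.0309 by edgeR). Of the 16 genes of this list that were tested, 0 were called higher and 1 lower. Log2 fold changes ran from -2.93 to 0.11, and 14 were negative. The median was -0.38, beside 0.0 for all genes. At an unadjusted p under 0.05 by edgeR, 6 of the 16 passed (37.5%), beside 14.3% of all genes. This list includes ASNS and ATF4 and was drawn up with earlier results of these data known. Its signs, median and shares are therefore description and not a test of the list. ATF4, the transcription factor of this branch, was at 189 and 194 CPM in knockout libraries and 263 and 288 CPM in parental libraries, with a log2 fold change of -0.52 and an adjusted p of 0.0961 by edgeR. ATF4 passed with DESeq2 (adjusted p = 0.0103), and in edgeR with no filter (0.0161), protein-coding genes only (0.0483) and a replicate block (0.00114). It did not pass with limma voom (0.0712). In edgeR it also did not pass with RLE factors (0.0932), upper-quartile factors (0.0886), library size alone (0.13), a stricter filter (0.0829) or a transcript-length offset (0.17). In the leave-one-out fits its log2 fold change was -0.59 to -0.46. DDIT3, the factor CHOP that PERK signalling induces, was at 2.45 and 3.73 CPM in knockout libraries and 2.84 and 5.24 CPM in parental libraries. TRIB3, a pseudokinase induced by ATF4 and CHOP, was at 10.6 and 10.3 CPM in knockout libraries and 10.2 and 9.13 CPM in parental libraries. For DDIT3 and TRIB3 the adjusted p-values were 0.743 and 0.865.

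None of the other 5 lists had a gene past the test, and their medians lay close to 0. They were -0.02 for the 21 degradation partners, -0.01 for the 24 translocon and N-glycosylation genes, -0.02 for the 28 other folding enzymes, -0.05 for the 15 tested genes of sensor processing and 0.03 for the 14 tested cell death effectors. The 2 genes with the smallest p in each of these 5 lists are named here, and 1 of these 10 (BID) had a positive log2 fold change. In the degradation list they were UBE2G2, a ubiquitin-conjugating enzyme, at 127 and 133 CPM in knockout libraries and 189 and 170 CPM in parental libraries, and MAN1B1, a mannosidase, with a log2 fold change of -0.58. SPCS1, a subunit of the signal peptidase, was at 49.96 and 51.3 CPM in knockout libraries and 77.9 and 68.9 CPM in parental libraries, and SSR1, a translocon-associated protein, had a log2 fold change of -0.40. PRKCSH, a subunit of glucosidase II, and TXNDC5, a disulfide isomerase, had log2 fold changes of -0.41 and -0.34. CREB3L2, a transcription factor cleaved like ATF6, had -0.53, and TRAF2, an adaptor bound by IRE1, had -0.40. Of the cell death effectors, BID had 0.40 and PMAIP1 had -0.42. Adjusted p-values of these 10 genes by edgeR were 0.119 to 0.436. UBE2G2 and CREB3L2 passed with DESeq2 (0.0463 and 0.0202). Over the 6 lists, 23 of 118 genes (19.5%) passed without parental replicate 1, beside 11.4% of all genes, and 12 of 119 (10.1%) without parental replicate 2, beside 9.27% of all genes. Neighbouring genes were also lower around several of them, with medians over the 30 nearest genes of -0.43 for CREB3L2, -0.32 for SPCS1, -0.29 for UBE2G2 and -0.26 for SSR1 and TXNDC5, and their part in these values was not tested.

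**Figure D4:**
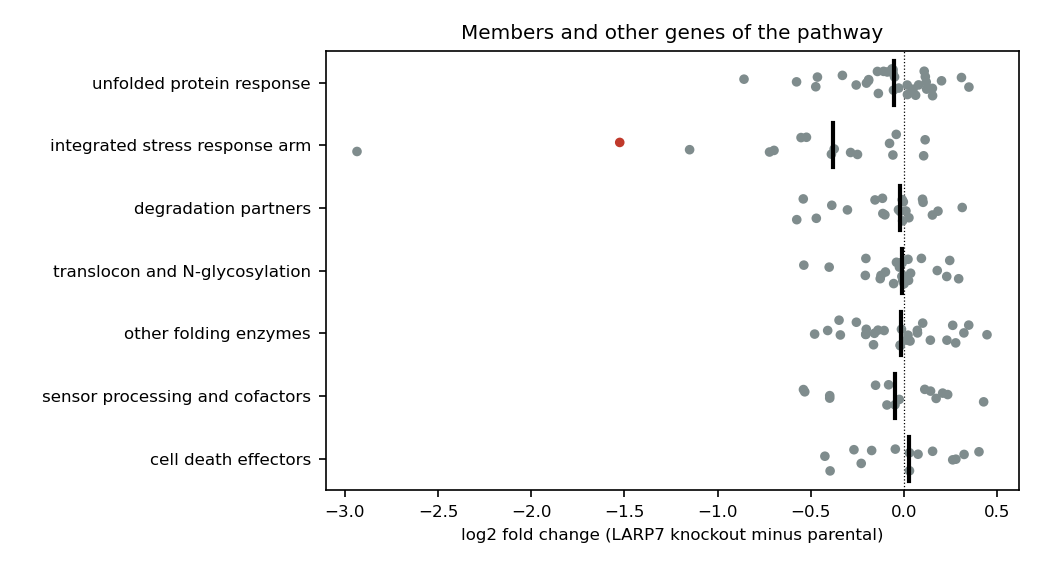
Log2 fold change, LARP7 knockout minus parental, of the 34 genes and of 6 related lists; each point is a gene, black lines are list medians, and red marks an adjusted p under 0.05 by edgeR. The integrated stress response list has a median of -0.38 and holds the single red point, ASNS; all other medians lie between -0.05 and 0.03.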

How the data were processed

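Total RNA-seq libraries of LARP7 knockout and parental HEK293 cells (2 each) were deposited as Salmon tables per transcript. Per the labels' protocols, TRIzol was used for extraction and the Ovation SoLo system for the libraries. The authors' deposited estimated counts (reads assigned to each transcript, not whole numbers), the deposited TPM values and the deposited transcript lengths and effective lengths were used. The submitters' processing notes name Salmon 1.6, STAR 2.5.3a, cutadapt 1.6, edgeR 3.24.3, Picard, R 3.5.1 and 3.3.3, SAMtools 1.3.1 and build hg38. What each was used for is not given in the sources used here, nor is the annotation or strand setting. One field of the knockout sample says wildtype; its title and genotype field were used. Replicate numbers came from the names of the deposited tables and the samples share only a number.

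Transcripts were joined to GENCODE release 29 (GRCh38): 197318 matched and 684 did not, these holding between 0.063 and 0.071% of estimated reads. Gene sums of the estimated counts were rounded and tested with edgeR 4.0.16 in R 4.3.3 (filterByExpr, TMM factors, quasi-likelihood F test, Benjamini-Hochberg adjusted p under 0.05 over all genes tested). Intervals are 95% and use the fit's degrees of freedom. Replicates differed beyond counting noise, with a chi-square per degree of freedom of 8.01 in knockout and 27.3 in parental libraries. For transcript usage, diffSpliceDGE with its Simes p per gene was applied. Neighbours are the nearest tested protein-coding genes with a log2 CPM above 3. Alternatives used DESeq2 1.42.0, limma 3.58.1, other normalizations and filters, a replicate block and leaving out each library. Scripts were tested on simulated data. Genes named were every member, the called genes of each related list or the 2 with the smallest p, and ATF4, DDIT3 and TRIB3. The members and lists were chosen with earlier results of these data known. No proteins were analysed here.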

Additional observations from a re-analysis of the deposited data

How the results depend on the processing

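None of the 34 genes passed under DESeq2, limma voom, RLE or upper-quartile factors, library size alone, no filter, a stricter filter, a transcript-length offset or protein-coding genes only. Replicate numbers come from table names, so the samples share only a number; with a replicate block 2 of the 34 passed (HERPUD1 and PDIA4), with 1656 genes in all, 14 of the related lists, and 0 members and 0 genes for transcript usage. Leaving out 1 library gave 0 to 3 of the 34 (HSPA5, HERPUD1 and PDIA4 without parental replicate 1, and SEL1L, ERO1B and PDIA4 without parental replicate 2), 200 to 2265 of all genes, 3 to 23 of the related lists, a median of the 34 between -0.05 and 0.02, and 0 to 0 members and 0 to 88 genes for usage. Of all genes, 459 passed with DESeq2, 831 with no filter and 90 with the length offset; of the related lists, 5, 6 and 2 did under these settings, and 2 with protein-coding genes only. Usage gave 2 members and 115 genes with a gene-level F test, 21 genes with a 10% share minimum, 3 members and 132 genes with no share minimum, and 2 members with a minimum of 30 reads. The median of the 34 was 0.04 with library size alone, where that of all genes was 0.095. Of 476 values of single genes under alternatives, 431 kept their sign and side of the threshold, 8 newly passed it and 37 changed sign, in 20 of the 34 genes. With library size alone the log2 fold changes that changed sign were HYOU1 0.04, CANX 0.0048, PDIA6 0.07, P4HB 0.04, ERO1A 0.03, EDEM3 0.03, DERL1 0.04. With the length offset they were EIF2AK3 -0.36, MANF 0.05, DNAJB9 -0.07, ERO1A 0.08, SYVN1 0.04, EDEM3 0.08, DERL1 0.09. With protein-coding genes only they were DNAJB9 -0.01, PPP1R15B -0.0095. In leave-one-out fits the ranges that crossed 0 were ERN1 -0.07 to 0.15, EIF2AK3 -0.09 to 0.25, XBP1 -0.35 to 0.09, HYOU1 -0.16 to 0.05, SDF2L1 -0.60 to 0.14, MANF -0.43 to 0.11, DNAJB9 -0.0089 to 0.05, DNAJB11 -0.11 to 0.23, DNAJC3 -0.0028 to 0.13, PDIA3 -0.0042 to 0.24, PDIA6 -0.18 to 0.13, P4HB -0.14 to 0.04, ERO1A -0.17 to 0.04, ERO1B -0.09 to 0.43, EDEM3 -0.14 to 0.03, DERL1 -0.18 to 0.07, SEC61B -0.31 to 0.14, PPP1R15B -0.07 to 0.11. The cause was not tested. The XBP1-202 share was 2.2 percentage points higher in knockout libraries by TPM and 1.12 by estimated counts. The intervals given rest on 2 libraries per group and are not detection limits, and no smallest detectable difference was computed. The widest intervals were those of DERL3, SDF2L1, PPP1R15A and EDEM2, all under 10 CPM in each library. A low count was not the only setting of a wide interval: HERPUD1, at 33.6 to 64.8 CPM, had -1.01 to 0.08.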
